A study of Mus musculus with 8 samples.

Results

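The genes described here are 10 mouse genes that move sodium, chloride, bicarbonate and water across epithelia: Scnn1a, Scnn1b, Scnn1g, Cftr, Aqp1, Aqp5, Aqp9, Slc9a3, Slc4a4 and Car2. They were chosen by name from 46517 genes counted, and each symbol matched 1 row. Scnn1a was among them because it was lower in the knockout label in an earlier fit of these same counts, so the difference between knockout label and control is given below as a description, with no p-value or call, for every one of the 10. RNA was sequenced from the epididymal ducts (Wolffian duct derivatives) of mouse embryos at E18.5. The 4 libraries labelled Ptk7 cKO (numbered 1, 2, 4 and 5) came from embryos with the disrupted Xst87 allele of Ptk7 over a loxP-flanked Ptk7 allele. The 4 control libraries (numbered 1, 3, 4 and 6) came from embryos with a wild-type Ptk7 allele over the loxP-flanked allele. All embryos carried the T-Cre transgene, named for the mesodermal gene T, and the mT/mG reporter, whose membrane fluorescence switches from Tomato to EGFP where Cre has acted. Ptk7 encodes a transmembrane protein of planar cell polarity with an inactive kinase domain.

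Absorbing epithelia take up sodium through apical channels and exchangers and pump it out at the base, and water follows. The epithelial sodium channel ENaC is built from alpha, beta and gamma subunits, encoded by Scnn1a, Scnn1b and Scnn1g, and CFTR is a chloride and bicarbonate channel opened by cyclic AMP. In the adult, the efferent ducts reabsorb most of the testicular fluid and the epididymal duct goes on to absorb sodium and water and to acidify the lumen, which keeps sperm at rest.

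Each library held between 24807970 and 29590547 counts, and 16469 genes passed the filter on low counts. Ptk7 stood at 7.33, 7.59, 12.5 and 194 CPM (counts scaled to library size and composition) in the libraries labelled Ptk7 cKO 1, 2, 4 and 5, against 189, 112.5, 313 and 169 CPM in controls 1, 3, 4 and 6. The library labelled Ptk7 cKO 5 thus kept Ptk7 at the control level, against its label, and values are given with and without it where it bears on a result. Nothing in the labels ties each library to its own embryo, so every p-value reflects how far these libraries differ among themselves, in part perhaps for technical reasons. All 26 duct epithelium markers passed the filter, among them Epcam and Krt8. Of 10 kidney markers 7 averaged under 0.1 CPM and Kap was at 0 in every library.

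The 3 ENaC subunits are related proteins whose tails carry a proline-rich motif (Pro-Pro-Pro-x-Tyr) that binds the ubiquitin ligase Nedd4-2, the product of Nedd4l. The coding stretch around it is shown because the levels of the subunits are compared below. Their sequences show how far the genes can be told apart by reads. Capitals mark the 15 bases of the motif, found in frame as codons for 3 prolines, any residue and a tyrosine. They were read from GENCODE M21 transcripts on the plus strand of GRCm38, at chr6:125343969-125344031 for Scnn1a, chr7:121917958-121918020 for Scnn1b and chr7:121767442-121767504 for Scnn1g.
Scnn1a: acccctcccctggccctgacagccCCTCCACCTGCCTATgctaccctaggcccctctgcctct
Scnn1b: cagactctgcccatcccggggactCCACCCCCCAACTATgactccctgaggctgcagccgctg
Scnn1g: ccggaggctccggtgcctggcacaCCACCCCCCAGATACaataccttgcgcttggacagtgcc
The motif occurred 1 time in each coding sequence, with 31 codons from its first proline to the last codon before the stop in Scnn1a, 25 in Scnn1b and 27 in Scnn1g. No stretch of 25 bases was shared between any pair of the 3 transcripts, so a read of 25 or more bases matches at most 1 of them exactly.

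Scnn1a (ENSMUSG00000030340; GRCm38 chromosome 6, 125320659 to 125344943, plus strand, 13 exon intervals) encodes the alpha subunit, which is needed for a working channel. It had 19.9, 13.9, 9.31 and 15.6 CPM in the libraries labelled Ptk7 cKO 1, 2, 4 and 5, against 31.8, 33.1, 31.0 and 26.3 CPM in controls 1, 3, 4 and 6. Every library labelled knockout lay below every control, and the library that kept Ptk7 lay with the other knockout labels. The mean was 14.7 ± 4.39 CPM in the knockout label and 30.5 ± 2.97 CPM in control (SD, n = 4 each), 0.481 of the control mean. The log2 fold change was -1.06 (SE 0.19), and -1.09 (SE 0.22) without the library labelled Ptk7 cKO 5.

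The beta and gamma subunits were low in every library. Scnn1b (ENSMUSG00000030873; chromosome 7, 121865111 to 121918515) had 0.844, 1.07, 1.03 and 0.777 CPM in the knockout label and 1.11, 1.13, 0.557 and 0.515 CPM in controls, from 14 to 34 counts a library. The knockout values lay within the control range. Scnn1g (ENSMUSG00000000216; chromosome 7, 121734479 to 121768475) had 0.153, 0.191, 0.267 and 0.245 CPM in the knockout label and 0.356, 0.167, 0.209 and 0.221 CPM in controls, from 4 to 9 counts, and did not pass the filter on low counts. With so few counts, a difference of the size seen in Scnn1a could not be read from Scnn1g. The log2 fold change of Scnn1b was 0.17 (SE 0.31).

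Per length (FPKM, the CPM divided by the summed exon length in kilobases), Scnn1a averaged 3.56 FPKM in the knockout label and 7.39 in control, Scnn1b 0.386 in the knockout label and 0.344 in control, and Scnn1g 0.0716 in the knockout label and 0.0795 in control. The alpha subunit was the highest of the 3 in all 8 libraries. Its ratio to Scnn1b was 13.7, 7.60, 5.27 and 11.7 in the knockout label, against 16.7, 17.0, 32.4 and 29.8 in controls. Its ratio to Scnn1g ranged from 25.2 to 93.9 in the knockout label and from 64.7 to 144 in controls. Alpha made up 81.3% to 92.3% of the summed level of the subunits in the knockout label and 93.0% to 96.1% in controls. Scnn1a was chosen for its difference between labels, so the gap between groups in these ratios and shares is a description.

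**Figure D1:**
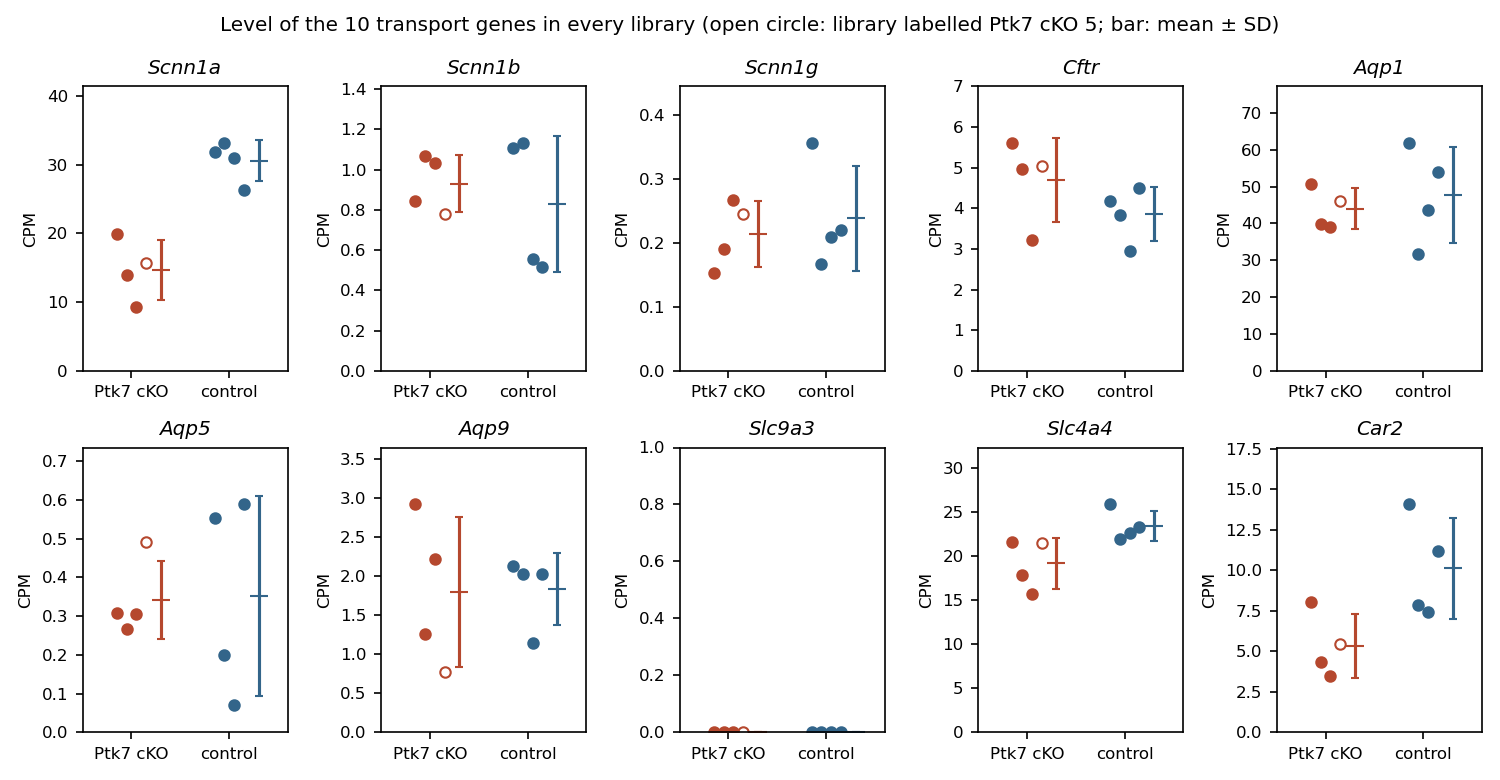
CPM of each of the 10 genes (vertical axes, each starting at 0) in 4 libraries labelled Ptk7 cKO (left) and 4 controls (right), with the mean ± SD as a bar and the library labelled Ptk7 cKO 5 as an open circle. The groups are apart in Scnn1a (9.31 to 19.9 CPM against 26.3 to 33.1) and, by a narrow margin, in Slc4a4, and overlap in the other genes with counts, while Slc9a3 is at 0 throughout.

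Cftr (ENSMUSG00000041301; chromosome 6, 18170687 to 18322768) was low but counted in every library. It had 5.60, 4.96, 3.21 and 5.03 CPM in the libraries labelled Ptk7 cKO 1, 2, 4 and 5, against 4.19, 3.83, 2.96 and 4.49 CPM in controls 1, 3, 4 and 6. In the knockout label 3 libraries stood above all controls and the remaining one within their range. The mean was 4.70 ± 1.04 CPM in the knockout label and 3.87 ± 0.662 in control (SD, n = 4 each), with a log2 fold change of 0.28 (SE 0.20). Of its 7765 exon bases, 129 are shared with Gm15592 on the other strand, so reads there are uncertain.

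The 3 water channels covered a wide range of levels. Aqp1 (ENSMUSG00000004655; chromosome 6, 55336432 to 55348555), a water channel of efferent ducts that is also found in endothelium and red cells, had 50.8, 39.9, 39.1 and 46.0 CPM in the knockout label, against 61.8, 31.7, 43.5 and 54.0 CPM in controls. The knockout values all lay inside the control range. The log2 fold change was -0.12 (SE 0.18), the smallest apart from Aqp9 among the 7 genes that passed the filter. Because red cells and endothelium can hold Aqp1, their markers stand beside it. All 13 endothelial markers passed the filter and none was at 0, with a summed level of 454 to 632 CPM in the knockout label and 491 to 572 CPM in control. Of 12 red cell markers 8 passed and none was at 0, and the summed level was 1375 to 3976 CPM in the knockout label (1375 to 1541 CPM without the library labelled Ptk7 cKO 5) and 805 to 2279 CPM in control. Their part in the level of Aqp1 was not tested.

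Aqp9 (ENSMUSG00000032204; chromosome 9, 71110659 to 71168682, minus strand), a channel for water and small solutes of the adult epididymal epithelium, had 2.92, 1.26, 2.21 and 0.777 CPM in the knockout label, against 2.13, 2.03, 1.15 and 2.02 CPM in controls. The knockout libraries spread to either side of the controls. The log2 fold change was -0.03 (SE 0.37), and 0.22 (SE 0.32) without the library labelled Ptk7 cKO 5, which was the lowest of all 8. Aqp5 (ENSMUSG00000044217; chromosome 15, 99590849 to 99594829), known from the apical membrane of secretory glands, had 0.307, 0.267, 0.305 and 0.491 CPM in the knockout label and 0.553, 0.20, 0.0696 and 0.588 CPM in controls, from 2 to 16 counts a library. It did not pass the filter, and no difference was detectable at this depth.

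Slc9a3, Slc4a4 and Car2 belong to the handling of sodium, protons and bicarbonate. Slc9a3 (ENSMUSG00000036123; chromosome 13, 74121515 to 74166064) encodes the apical sodium-proton exchanger NHE3 of efferent ducts and kidney. It had 0 counts in each of the 8 libraries, out of 214244272 counts in all. A count of 0 allows up to 3 counts a library, or 0.0999 to 0.123 CPM, and this limit covers counting error only. None of its deposited exon bases were shared with another gene. The deposited model ended 3378 bases before the gene's end in GENCODE M21, so reads of a longer 3′ end were not counted.

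Slc4a4 (ENSMUSG00000060961; chromosome 5, 88886818 to 89239653) encodes the basal sodium-bicarbonate cotransporter NBCe1. It had 21.6, 17.9, 15.7 and 21.5 CPM in the libraries labelled Ptk7 cKO 1, 2, 4 and 5, against 25.8, 21.9, 22.7 and 23.3 CPM in controls 1, 3, 4 and 6. The groups did not overlap, but the highest knockout library and the lowest control lay close together. The mean was 19.2 ± 2.87 CPM in the knockout label and 23.4 ± 1.70 in control (SD, n = 4 each), with a log2 fold change of -0.29 (SE 0.11).

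Car2 (ENSMUSG00000027562; chromosome 3, 14886273 to 14900770) encodes the cytosolic carbonic anhydrase that makes bicarbonate and protons from carbon dioxide. It had 8.06, 4.35, 3.51 and 5.44 CPM in the knockout label, against 14.1, 7.86, 7.45 and 11.2 CPM in controls. Library 1 of the knockout label stood above controls 3 and 4, and the remaining knockout libraries lay below all controls. The mean was 5.34 ± 1.98 CPM in the knockout label and 10.1 ± 3.11 in control (SD, n = 4 each), with a log2 fold change of -0.92 (SE 0.27).

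In the fit over all genes, edgeR's quasi-likelihood test called 0 of 16469 genes at an adjusted p of 0.05 (0.0%). At an unadjusted p under 0.05, 802 genes were lower (4.87%) and 577 higher (3.5%) in the knockout label. DESeq2 called 186 genes (1.2% of 15502; 0.826% were lower in the knockout label), and 185 without the library labelled Ptk7 cKO 5. Groups without overlap, lower in the knockout label, occurred in 3.11% of tested genes, and among the 10 in Scnn1a and Slc4a4. No member was higher in the knockout label without overlap, against 2.65% of tested genes. Of the 10 genes 7 passed the filter and were part of this fit. Since the contrast was used to choose Scnn1a, their calls are not given, and the counts without overlap describe the set and show nothing about it.

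The order of the levels per length was not used in the choice of the genes, and neighbours in it were compared. The order was itself taken from the means of these 8 libraries. The p-values below therefore do not test an order set beforehand. Averaged over 8 libraries it ran Aqp1 (17.5 FPKM), Scnn1a (5.47), Car2 (3.19), Slc4a4 (1.97), Cftr (0.551), Aqp9 (0.438), Scnn1b (0.365), Aqp5 (0.208), Scnn1g (0.0756) and Slc9a3 at 0, and it was the same in the means of each group. Neighbours in this order were compared within libraries on log2(FPKM + 0.01) by an exact two-sided sign-flip permutation test, with 9 pairs and Benjamini-Hochberg adjustment. Aqp1 was above Scnn1a in 8 of 8 libraries by 1.77 ± 0.67 log2 units (SD; exact p = 0.00781, the smallest possible, adjusted p = 0.0176). Scnn1a was above Car2 in 8 of 8 by 0.78 ± 0.35 (exact permutation, same p), and Slc4a4 was above Cftr in 8 of 8 by 1.83 ± 0.36 (exact permutation, same p). Car2 was above Slc4a4 in 7 of 8 libraries by 0.58 ± 0.46 (exact permutation adjusted p = 0.0234), an order that held only per length: in CPM, Slc4a4 was the higher. Per length, Cftr over Aqp9 (exact permutation adjusted p = 0.149) and Aqp9 over Scnn1b (exact permutation adjusted p = 0.391) did not pass. Cftr was not compared with Scnn1b, since only neighbours were, so these genes are not shown to be equal. In CPM, not divided by length, both pairs passed (exact permutation adjusted p = 0.0141 for Cftr over Aqp9, in 8 of 8 libraries, and 0.0176 for Aqp9 over Scnn1b, in 7 of 8). Scnn1b over Aqp5 missed the threshold (exact permutation adjusted p = 0.0502), while Aqp5 was above Scnn1g in 7 of 8 libraries (exact permutation adjusted p = 0.0234). In CPM, Scnn1b over Aqp5 passed (exact permutation adjusted p = 0.0176) and Aqp5 over Scnn1g did not (exact permutation adjusted p = 0.211). Aqp5 and Scnn1g had 16 counts or fewer in every library and did not pass the filter on low counts. The 9 pairs include Scnn1g over Slc9a3, whose 0 counts fix the outcome, so that pair is no test. Its small p was still part of the adjustment, per length and in CPM. Adjusted p-values of most other pairs are therefore somewhat lower than they would be without it.

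**Figure D2:**
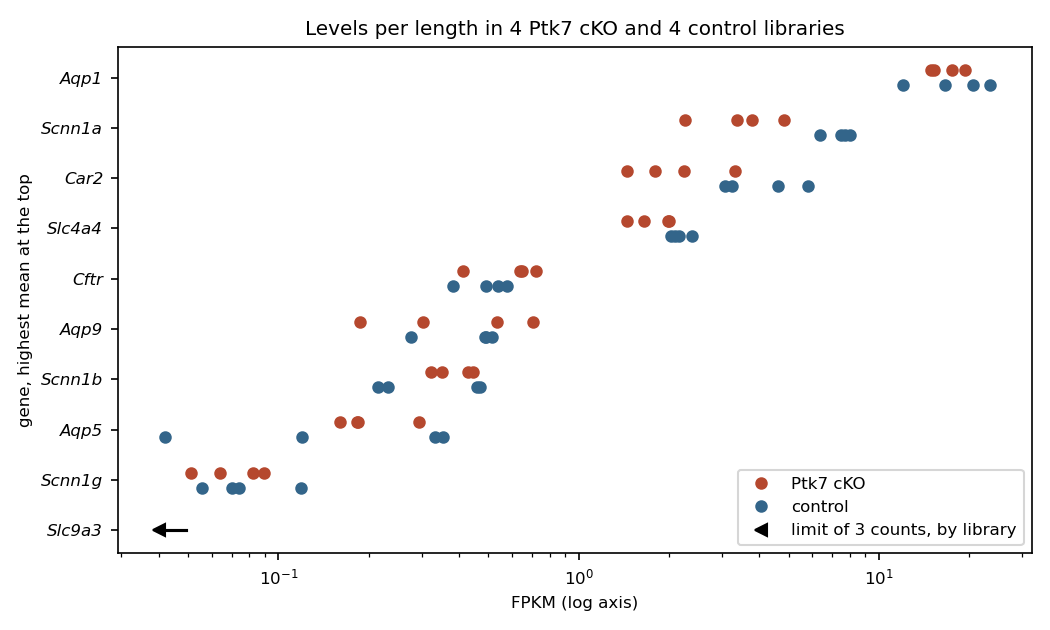
FPKM on a log axis for the 10 genes, highest mean at the top, with 4 libraries labelled Ptk7 cKO above 4 controls in each row, and for Slc9a3 the limit of 3 counts per library (0.0401 to 0.0493 FPKM). Aqp1 stands at the top in every library, Cftr, Aqp9 and Scnn1b overlap, and in Scnn1a the groups do not overlap.

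Promoter composition is shown for Cftr and Aqp9, neighbours in level per length. The sequences, from RefSeq on GRCm38.p6, run from 250 bases before to 50 after a start site, and 8 of the 10 genes matched the table (Scnn1a and Car2 did not). Capitals mark each CG. The Cftr window lies at chr6:18170437-18170736, plus strand, and the Aqp9 window at chr9:71163240-71163539, minus strand, the first of 2 start sites listed for that gene.
Cftr: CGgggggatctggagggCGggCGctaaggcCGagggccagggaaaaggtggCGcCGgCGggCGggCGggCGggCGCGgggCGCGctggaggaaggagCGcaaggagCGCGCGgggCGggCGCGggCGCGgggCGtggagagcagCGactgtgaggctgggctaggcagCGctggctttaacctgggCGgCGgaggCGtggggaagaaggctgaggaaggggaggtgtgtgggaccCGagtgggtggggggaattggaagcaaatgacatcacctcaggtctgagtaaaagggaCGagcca
Aqp9: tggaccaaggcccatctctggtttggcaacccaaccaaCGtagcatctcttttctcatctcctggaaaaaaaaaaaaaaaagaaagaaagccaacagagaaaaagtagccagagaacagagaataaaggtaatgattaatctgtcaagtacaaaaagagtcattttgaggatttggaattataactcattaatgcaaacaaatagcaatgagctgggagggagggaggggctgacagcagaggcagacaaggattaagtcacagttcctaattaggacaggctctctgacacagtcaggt
The Cftr window held 31 CG and 71.3% G and C, and the Aqp9 window 1 CG and 41.3%, around a median of 7 CG and 52.7% over 32851 windows. The palindrome AACCGGTT bound by Grhl factors, searched on both strands, was in 0.146% of all windows and in no window of the 8 genes, which says only that these letters are not there.

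Scnn1a was set beside the epithelium that holds it. In bulk RNA, fewer epithelial cells and less RNA per cell cannot be told apart. The 26 duct epithelium markers, none at 0, summed to 1360 to 1870 CPM in the knockout label and 1632 to 1890 CPM in control, with 22 of 26 below 0 and a median log2 fold change of -0.29. Over all tested genes the median was 0.01. Their fold changes ran from -0.67 (Lhx1) to 1.22 (Ret), so those of Scnn1a and Car2 were below that of every marker. Ret was low, averaging 1.81 CPM in the knockout label and 0.782 in control (SE of the log2 fold change 0.37). The library labelled Ptk7 cKO 5 had 0.695 CPM of Ret, and without it the log2 fold change was 1.48 (SE 0.26). Scnn1a was chosen because it was lower in an earlier fit of these counts. Its place among the markers and its level per marker CPM are therefore descriptions and no test. Per 1000 CPM of these markers, Scnn1a stood at 13.4, 7.45, 6.85 and 9.55 in the libraries labelled Ptk7 cKO 1, 2, 4 and 5, against 17.5, 19.5, 16.4 and 16.1 in controls 1, 3, 4 and 6. The groups did not overlap on this scale, and the mean in the knockout label was 0.536 of that in control. Car2 per 1000 marker CPM was 5.44, 2.33, 2.58 and 3.33 in the knockout label and 7.76, 4.63, 3.94 and 6.85 in controls, with overlap. Slc4a4 per 1000 marker CPM averaged 12.2 ± 2.15 in the knockout label and 13.4 ± 1.11 in control (SD, n = 4 each), again with overlap. The part of the epithelial share in these differences was not tested. The summed level is carried by abundant markers such as Epcam (log2 fold change -0.18, SE 0.11) and Krt8 (0.12, SE 0.17).

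**Figure D3:**
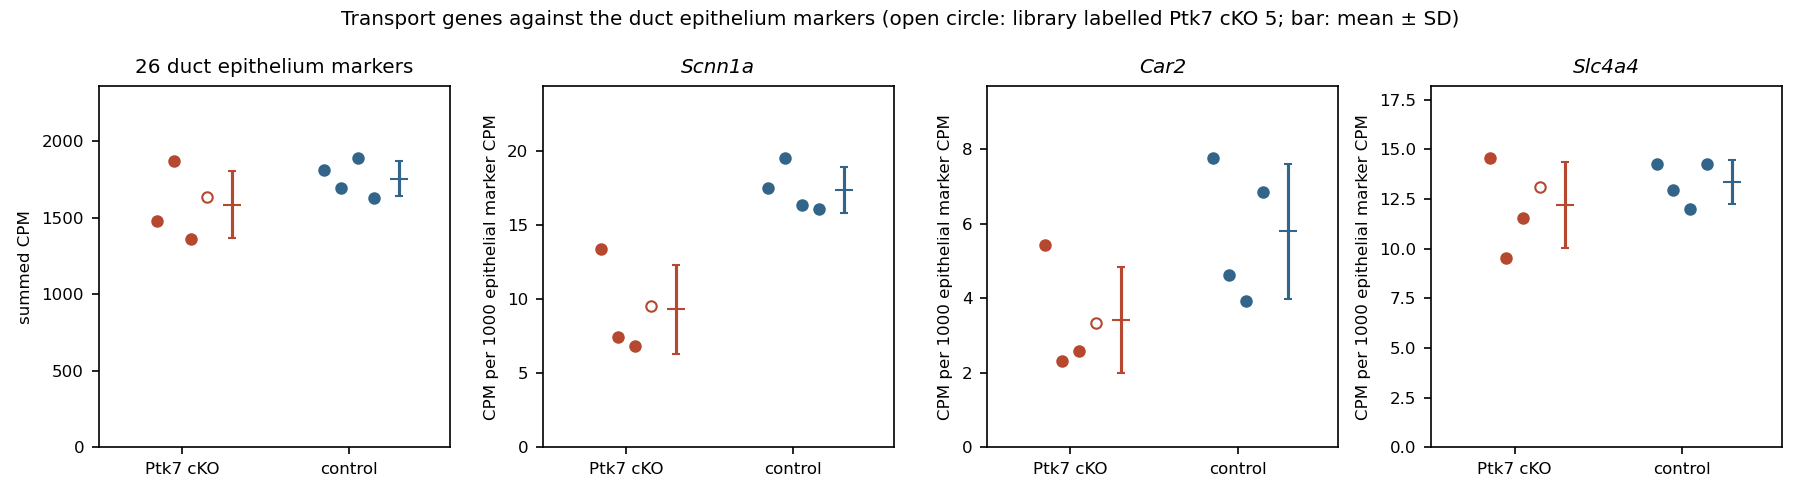
Summed CPM of the 26 duct epithelium markers, then Scnn1a, Car2 and Slc4a4 per 1000 CPM of those markers (vertical axes from 0), in 4 libraries labelled Ptk7 cKO (left) and 4 controls (right), with the mean ± SD as a bar and the library labelled Ptk7 cKO 5 open. The marker sums overlap, and Scnn1a stays apart on this scale (6.85 to 13.4 against 16.1 to 19.5).

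Efferent duct carry-over matters for Aqp1, Aqp9 and Slc9a3, which are abundant there in the adult. Of the 16 markers of multiciliated efferent duct cells 15 were found and 9 passed the filter. Foxj1, their master transcription factor, averaged 10.2 ± 1.95 CPM in the knockout label and 10.4 ± 4.06 in control (SD, n = 4 each), and Sntn was at 0. Of the 9 tested markers 6 were below 0 and 3 above, with a median log2 fold change of -0.03. Dnah5 was the 1 lower at an unadjusted p under 0.05 (log2 fold change -1.12, SE 0.37). It averaged 0.666 CPM in the knockout label and 1.46 in control. The summed level was 47.5 to 54.0 CPM in the knockout label and 43.0 to 56.6 CPM in control. Most of it came from Cfap43 (30.4 CPM in the knockout label and 30.6 CPM in control), so the sum says little about the other markers. The part of these cells in the levels of the water channels was not tested.

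Markers of the other cell types in the duct are given here for the whole set of transport genes, and no list was at 0. Mesothelial markers (9 of 10 found) summed to 738 to 906 CPM in the knockout label and 582 to 693 CPM in control, without overlap. Smooth muscle markers (10) summed to 2916 to 3685 CPM in the knockout label and 3678 to 4404 CPM in control, and mesenchymal markers (12) to 19030 to 24410 CPM in the knockout label and 17010 to 21940 CPM in control. Macrophage markers (9) summed to 255 to 345 CPM in the knockout label and 197 to 300 CPM in control, and markers of neurons and Schwann cells (11) to 68.4 to 110.9 CPM in the knockout label and 58.6 to 78.4 CPM in control. Testis markers (9) summed to 17.8 to 25.4 CPM in the knockout label and 20.2 to 27.2 CPM in control, and the kidney list to 1.95 to 2.78 CPM in the knockout label and 2.20 to 3.28 CPM in control. The part of these cells in the transport genes was not tested.

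The rest of the transport machinery was described over 8 lists of related genes, 121 in all, of which 84 passed the filter. None of the 84 was called by edgeR over all genes. At an unadjusted p under 0.05, 3 were higher and 10 lower in the knockout label (3.5% higher and 4.87% lower over all tested genes), and the median log2 fold change was 0.00.

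Of 20 regulators of ENaC, all passed the filter, and 2 were higher and 3 lower at an unadjusted p under 0.05 (3.5% higher and 4.87% lower over all tested genes). The 2 with the highest CPM were Wnk1, a kinase of salt transport (177 ± 18.0 CPM in the knockout label and 187 ± 14.9 in control), and Spint2, an inhibitor of channel-activating proteases (146 ± 23.6 CPM in the knockout label and 167 ± 10.9 in control). Prss8, or prostasin, a membrane protease that activates ENaC, averaged 22.5 ± 4.65 CPM in the knockout label and 31.3 ± 3.35 in control, a log2 fold change of -0.48 (SE 0.14, edgeR adjusted p = 0.358). The others lower at an unadjusted p under 0.05 were Tmprss2 and Spint1. Tmprss2 had a log2 fold change of -0.46 (SE 0.17, edgeR adjusted p = 0.485). That of Spint1 was -0.36 (SE 0.13, edgeR adjusted p = 0.480). Wnk4, a kinase of the same family as Wnk1, averaged 19.4 ± 1.63 CPM in the knockout label and 14.6 ± 1.35 in control (log2 fold change 0.41, SE 0.10, edgeR adjusted p = 0.245), without overlap, and was called by DESeq2 (adjusted p = 0.0332) but not when the library labelled Ptk7 cKO 5 was left out. Hsd11b2, which shields the mineralocorticoid receptor from glucocorticoids, averaged 36.5 ± 1.86 CPM in the knockout label and 29.8 ± 2.79 in control, without overlap (edgeR adjusted p = 0.348). The receptor itself, Nr3c2, was low, at 0.29 to 1.53 CPM in the knockout label and 0.59 to 0.87 CPM in control. Nedd4l, whose product binds the motif shown above, averaged 41.2 CPM in the knockout label and 44.9 CPM in control (log2 fold change -0.12, SE 0.12).

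The 13 tested subunits of the sodium pump had a median log2 fold change of 0.07. Fxyd6, a modulator of the pump, averaged 236 ± 17.8 CPM in the knockout label and 230 ± 29.8 in control (SD, n = 4 each). Of 31 other chloride channels and anion carriers 20 passed, 0 higher and 3 lower at an unadjusted p under 0.05 (3.5% higher and 4.87% lower over all tested genes). The highest in CPM were Ano6, a lipid scramblase (160 in the knockout label and 168 in control), and Ano1, a calcium-activated chloride channel of the same family (125 in the knockout label and 126 in control). Clcn5, an endosomal chloride-proton exchanger, averaged 78.9 ± 10.2 CPM in the knockout label and 105 ± 15.7 in control (log2 fold change -0.41, edgeR adjusted p = 0.339), and was called by DESeq2 only when the library labelled Ptk7 cKO 5 was left out.

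Of 14 other sodium-proton exchangers and their scaffolds 12 passed, with 0 higher and 2 lower at an unadjusted p under 0.05 (3.5% higher and 4.87% lower over all tested genes). The scaffolds Ezr (184 ± 35.3 CPM in the knockout label and 183 ± 15.7 in control) and Slc9a3r2 (90.3 ± 5.84 CPM in the knockout label and 78.4 ± 16.8 in control) had the highest CPM of the list. Of 9 other bicarbonate carriers 5 passed, none at an unadjusted p under 0.05, with Slc4a2 (55.3 ± 1.36 CPM in the knockout label and 48.8 ± 8.57 in control) and Slc4a3 (20.2 ± 2.23 CPM in the knockout label and 17.4 ± 3.95 in control) at the highest CPM. Of 15 other carbonic anhydrases 9 passed, with a median log2 fold change of 0.23, against -0.92 for Car2. Car5b, a mitochondrial form, averaged 11.4 ± 1.40 CPM in the knockout label and 15.3 ± 3.03 in control (log2 fold change -0.42, SE 0.15, edgeR adjusted p = 0.436), and Car11, a relative without enzyme activity, 15.5 ± 2.52 CPM in the knockout label and 12.7 ± 4.17 in control.

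Among 9 other aquaporins Aqp11 was the 1 that passed the filter, at 2.43 ± 0.609 CPM in the knockout label and 3.07 ± 1.04 in control, and Aqp8 and Aqp12 were at 0 in every library. Aqp7, the next by CPM, averaged 0.148 CPM in the knockout label and 0.284 CPM in control. Genes of proton-secreting cells were low: Atp6v1g3 was at 0 and 4 of 9 passed. Foxi1, the transcription factor of these cells, had 2.69, 4.12, 2.14 and 1.96 CPM in the libraries labelled Ptk7 cKO 1, 2, 4 and 5, against 4.70, 6.36, 5.43 and 3.68 CPM in controls 1, 3, 4 and 6 (edgeR adjusted p = 0.340), a log2 fold change of -0.89 with an SE of 0.26. The groups overlapped through 1 knockout library. Atp6v0a4, a pump subunit, averaged 2.58 ± 1.20 CPM in the knockout label and 3.58 ± 0.523 in control (log2 fold change -0.48, SE 0.28, and -0.84 without the library labelled Ptk7 cKO 5, where DESeq2 called it).

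**Figure D4:**
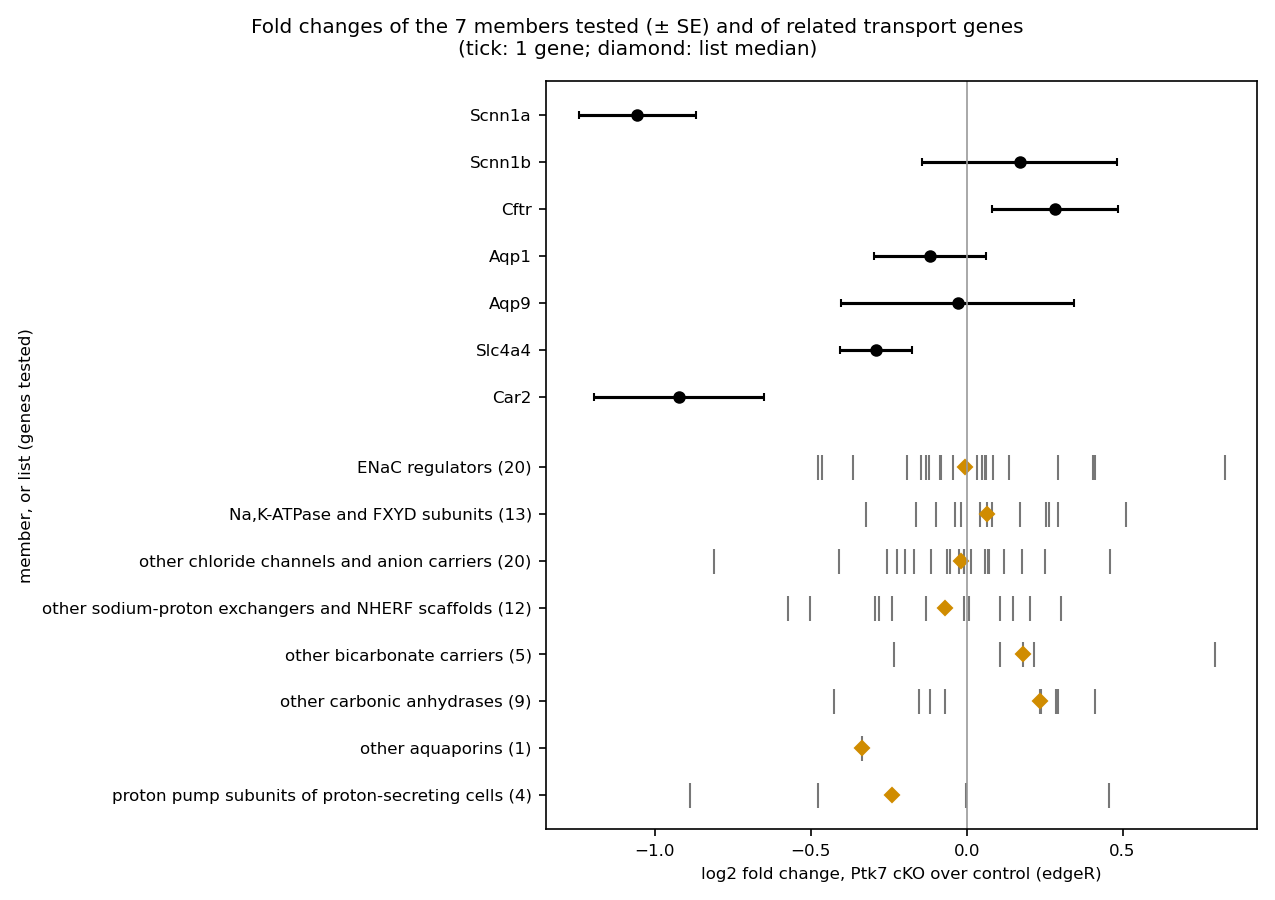
Log2 fold change of Ptk7 cKO over control from edgeR for the 7 of 10 genes that passed the filter on low counts (points, ± SE), and for the tested genes of 8 related lists (ticks), with each list's median as a diamond. Scnn1a (-1.06) and Car2 (-0.92) lie at the far left, and list medians lie between -0.33 and 0.23.

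The genes most like Scnn1a across the 8 libraries, by Pearson's r of log2 CPM among 13334 others, were Wipf3 (0.99), an actin regulator, the formin Fmn1 (0.99), the polarity receptor Fzd6 (0.98), the carrier Slc16a12 (0.98) and the fucosyltransferase Fut9 (0.97). They were the highest of many and share the difference between labels with Scnn1a, so the values are a description. Fmn1 averaged 5.73 ± 0.968 CPM in the knockout label and 10.1 ± 0.722 in control, and Slc16a12 9.35 ± 2.42 CPM in the knockout label and 16.6 ± 0.469 in control. For Car2 the closest were Rgs9bp (0.98) and Myo15b (0.97), and for Slc4a4 Dpys (0.98) and Dchs2 (0.97). For Aqp1 they were Sult1e1 and Irak4 (0.95 each), for Cftr Emg1 (0.93) and Cfp (0.92), for Scnn1b Tor2a (0.94) and Plpbp (0.93), and for Aqp9 Atp5k-ps2 (0.97) and Rps6 (0.95). These genes too were the highest of 13334 over only 8 libraries. Their values are descriptions and no test of a shared pattern.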

How the data were processed

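The authors deposited raw counts per gene, 1 column per library, with the summed exon length of each gene. The submitters' processing notes name STAR, featureCounts and the GRCm38 build. Their versions, the strand setting and the annotation used for counting are not given in the sources read. Symbols were matched by Ensembl identifier for 46005 of 46517 genes, and 38853 genes had the position they have in GENCODE M21.

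The tests used edgeR 4.0.16 under R 4.3.3 with TMM factors, filterByExpr and the quasi-likelihood F test on group, with Benjamini-Hochberg adjustment at 0.05 over 16469 genes. SE is the size of the log2 fold change over the square root of F. The biological coefficient of variation was 15.2%. DESeq2 1.42.0 ran on the same genes. FPKM is TMM-scaled CPM over exon length, and levels were compared with scipy 1.17.1. Log2 CPM for likeness had a prior count of 2. The code was tested on simulated data. No pair of libraries, of 28, agreed within sampling noise (chi-square over its degrees of freedom was 13.7 to 81.7), and none was taken as a duplicate.

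The members and lists were chosen with earlier results of these data known. Named genes were the members, the 2 genes of each list with the highest mean CPM, and the genes most like each member (5 for Scnn1a, 2 for others, mean CPM at least 1). Some genes of the lists are not reported here. Other genes named, among them Prss8, Tmprss2, Spint1, Wnk4, Hsd11b2, Nr3c2, Nedd4l, Clcn5, Lhx1, Ret, Dnah5, Pdzk1, Slc26a3 and Fxyd2, were chosen after their values were seen. Of 269 listed genes 267 were found.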

Additional observations from a re-analysis of the deposited data

Results flagged for a closer look

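Of 154 groups of 4 libraries looked at (the members, the named genes and Ptk7), 12 held 1 library far from the rest, and chance gives about 1 in 20. Some genes entered this set with their levels already known, among them Pdzk1, Fxyd2, Slc26a3, Nr3c2 and Ptk7, which all stood apart in 1 library. The 12 groups therefore cannot be weighed against the rate of 1 in 20, and no excess over chance is shown. Among the members, control 4 stood apart in Aqp9, at 1.15 CPM against 2.02 to 2.13 CPM in the other controls. The library labelled Ptk7 cKO 5 stood apart in Ptk7, at 194 CPM against 7.33 to 12.5 CPM in the other knockout labels. It also stood apart in the red cell genes Hbb-bs (2110 CPM against 758 to 841) and Hba-a1 (1290 CPM against 334 to 492), whose near-identical copies make counts uncertain. The library labelled Ptk7 cKO 2 stood apart in Epcam, at 298 CPM against 215 to 221. The library labelled Ptk7 cKO 1 stood apart in Aqp11, at 3.34 CPM against 2.10 to 2.14, in Pdzk1, at 21.1 CPM against 0.687 to 3.20, in Fxyd2, at 7.45 CPM against 5.27 to 5.50, and in Slc26a3, at 9.25 CPM against 1.15 to 2.40. In the controls, number 6 stood apart in Fmn1, at 9.01 CPM against 10.3 to 10.5, number 1 in Dchs2, at 5.65 CPM against 4.35 to 4.49, and number 3 in Nr3c2, at 0.866 CPM against 0.588 to 0.632.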

How the results depend on the processing

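The count of genes called over all genes was 0 in edgeR and 0 with DESeq2 size factors or a minimum of 1 CPM in 4 libraries. It was 1 with no filter, 186 in DESeq2, 185 in DESeq2 without the library labelled Ptk7 cKO 5 (added after seeing the data), and 0 to 2 when 1 library was left out (2 when control 1 was left out, 1 when the library labelled Ptk7 cKO 5 was). At an unadjusted p under 0.05 edgeR had 1379 genes. The cause was not tested. Titles share the numbers 1 and 4 across groups. Libraries of the same number did not deviate together (correlations -0.092 and 0.023), and the fit with a replicate block over these 4 libraries called 7 genes. The log2 fold changes of the members moved past 1 SE in 1 of 98 values and had the other sign in 8, 7 of them in Aqp9 (-0.37 to 0.69) and 1 in Aqp1 (-0.27 to 0.03). Scnn1a ran from -1.24 to -0.89, Car2 from -1.19 to -0.72 and Slc4a4 from -0.39 to -0.21. In the order of levels 6 of 9 neighbour pairs passed, 1 of them Scnn1g over the uncounted Slc9a3, whose outcome is fixed. In CPM not divided by length 8 passed: Cftr over Aqp9, Aqp9 over Scnn1b and Scnn1b over Aqp5 passed there, Aqp5 over Scnn1g did not, and Car2 and Slc4a4 changed places. With controls alone 0 passed, where 4 libraries allow no p below 0.125. Leaving out 1 library gave 6 to 7 pairs. Depth limits Scnn1g, Aqp5 and Slc9a3, which had 16 counts or fewer in every library.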

Other observations

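Within each group, several transport genes were high in the same libraries. Among controls 1, 3, 4 and 6, Car2 had 14.1, 7.86, 7.45 and 11.2 CPM and Aqp1 had 61.8, 31.7, 43.5 and 54.0 CPM, highest in numbers 1 and 6. The anion exchanger Slc26a3 had 11.0, 4.46, 3.65 and 6.77 CPM in these controls. The scaffold Pdzk1 had 12.3, 4.13, 6.93 and 10.8 CPM, and the sodium pump modulator Fxyd2 had 11.1, 5.06, 5.08 and 8.38 CPM, again highest in numbers 1 and 6. Among the libraries labelled Ptk7 cKO 1, 2, 4 and 5, number 1 was the highest in Car2 (8.06, 4.35, 3.51 and 5.44 CPM) and in Aqp1 (50.8, 39.9, 39.1 and 46.0 CPM). It was also the highest in Slc26a3 (9.25, 2.40, 1.15 and 1.88 CPM), Pdzk1 (21.1, 3.20, 0.687 and 2.70 CPM) and Fxyd2 (7.45, 5.27, 5.50 and 5.36 CPM). Scnn1b did not follow this order in either group, and Scnn1a did not in controls, where it was highest in number 3 (33.1 CPM) and lowest in number 6 (26.3 CPM). These genes were picked after their values were seen, and no test was made.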
